A study of Mus musculus with 24 samples.

Results

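The difference in LPS response between PWD and B6 dendritic cells was taken gene by gene, as the change after LPS in PWD minus the change after LPS in B6. LPS, or endotoxin, is the outer-membrane lipopolysaccharide of Gram-negative bacteria, here from E. coli 0111:B4. The contrast used 16 of the 24 RNA-seq libraries of the series, 4 in each of 4 groups: untreated B6, LPS-treated B6, untreated PWD and LPS-treated PWD. All were dendritic cells grown from bone marrow for 7 days with GM-CSF at 20 ng/ml, in cultures that each came from 1 mouse, and the treated cultures received LPS at 10 ng/ml for 6 hours. PWD is a wild-derived inbred strain of the subspecies Mus musculus musculus, B6 is the label of the laboratory strain it is set against, and the labels name no deletion or transgene. The age of the mice is not stated. A further strain label, C57, has 8 libraries, which entered the estimate of spread and are set beside the contrast below. The labels do not say what sets C57 and B6 apart. The table holds 55291 gene symbols, of which 13246 reached 1 TPM in 4 or more of the 24 libraries and were tested. The values are TPM, transcript abundances scaled to the same total in every library, so a level is always relative to the other transcripts of its library, and read depth is unknown.

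LPS is recognised on dendritic cells by the receptor TLR4 with its partners CD14 and MD-2. One arm of signalling, through MyD88, leads to NF-kB and AP-1 and to cytokines such as TNF, IL-6 and IL-12. The other arm, through TRIF, leads to IRF3, to interferon beta and then, through the interferon receptor and the factor ISGF3, to the interferon-stimulated genes. Within hours the cells also shut down proliferation and growth genes, change their lipid metabolism and mature into antigen-presenting cells.

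Differences are on the scale of log2(TPM + 1), which understates the change of genes near or below 1 TPM. For such genes the difference between the strains can come out larger or smaller with another pseudocount. A gene was called when its p from limma, adjusted over all 13246 genes by the Benjamini-Hochberg method, was under 0.05. By this rule 3111 genes responded differently, 23.5% of those tested. The response was higher in PWD for 2117 genes (16%) and lower for 994 (7.5%). This split depends on how libraries are scaled. Median-of-ratios scaling gave 1980 higher and 2226 lower, and quantile normalization gave 2261 higher and 1886 lower. The median difference over all tested genes was 0.14 on the TPM scale and 0.01 and 0.02 after these scalings. A difference near the TPM median thus lies near 0 on the other scales.

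Within the strains, LPS raised 1575 genes (11.9%) and lowered 7905 (59.7%) in B6, raised 1464 (11.1%) and lowered 6946 (52.4%) in PWD, and raised 1371 (10.4%) and lowered 6908 (52.2%) in C57. These counts are on the TPM scale, where the median change over all tested genes was -0.43 in B6, -0.32 in PWD and -0.32 in C57. The number lowered includes this shared shift, and the counts after other scalings are not reported here.

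"Higher in PWD" covers several patterns, which were separated by the calls in each strain. The most frequent was a smaller fall, 1633 genes (12.3%) that fell in B6 and fell less, or were not called, in PWD, with a median change of -1.08 in B6 and -0.42 in PWD. A larger rise was found for 376 genes (2.84%), with medians of 0.19 and 1.15, and 208 of them were not called in B6. Another 98 genes (0.74%) rose in PWD and fell in B6. On the other side, 483 genes (3.65%) rose in B6 and rose less, or were not called, in PWD, with medians of 1.06 and 0.15. Median-of-ratios scaling gave 1214 smaller falls and 1571 smaller rises, so which of these classes is larger depends on scaling. A larger fall in PWD was called for 405 genes (3.06%), and 98 genes (0.74%) fell in PWD and rose in B6. The remaining 10 and 8 called genes (0.0755% and 0.0604%) were called in neither strain alone. With cultures paired by library number, the 4 within-mouse changes of PWD and the 4 of B6 did not overlap for 2577 of the 3111 called genes. The share over all tested genes was 24%.

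**Figure D1:**
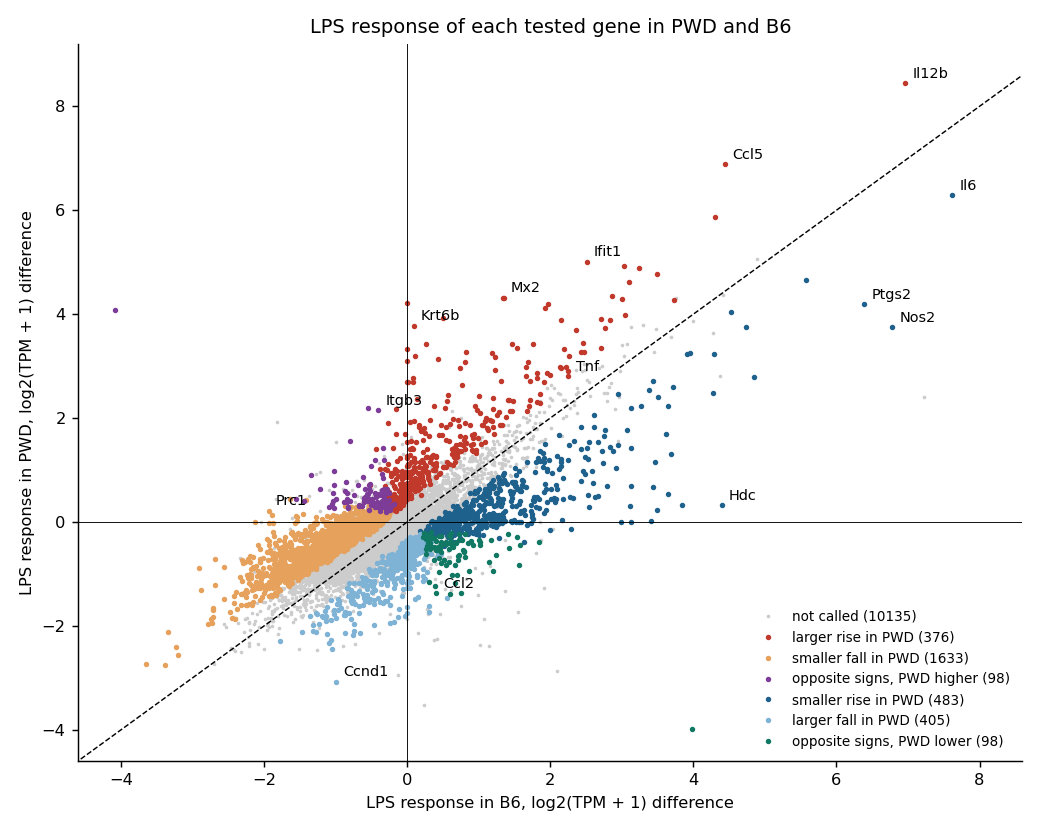
LPS response of each tested gene in B6 (horizontal axis) and PWD (vertical axis), as the difference of group means of log2(TPM + 1), 4 libraries per group; colours give the class of the difference and the dashed line marks equal responses. The 376 genes with a larger rise (red) lie above the line at the right and centre, the 1633 with a smaller fall (orange) above it at the left, and the 483 with a smaller rise (dark blue) below it. The lone points far out in the upper left and lower right are a pair of Rpl27 pseudogene models.

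The libraries of a group were not alike in every respect. Xist, the RNA of the inactive X chromosome, stood at 47.3 to 104 TPM in the libraries numbered 3 and 4 of each group and at most at 0.0901 TPM in those numbered 1 and 2, so the numbers split the mice by sex. Untreated PWD libraries split by the same numbers in structural RNA (mitochondrial rRNA and noncoding RNAs such as 7SL and 7SK), which took 41.9% and 40.2% of TPM in 1 and 2 but 29.3% and 28.8% in 3 and 4. It took 32.02% to 44.2% in untreated B6, 33.2% to 41.2% in LPS-treated B6 and 36.3% to 39.1% in LPS-treated PWD. The median difference over all genes was 0.33 with only mice 1 and 2 and -0.06 with only mice 3 and 4. The sexes and the structural RNA cannot be told apart in untreated PWD. With mice 1 and 2 the counts were 3671 higher and 520 lower, and with mice 3 and 4 they were 808 higher and 1366 lower. Most list counts below are therefore followed by those of each pair of mice, with the higher count first. Each list count is to be read against the shares over all tested genes, 16% higher and 7.5% lower. A stricter set of 997 genes (622 higher and 375 lower) was called with the same sign with all mice, within each pair of mice, with the mouse as a block, with a pseudocount of 0.1 TPM and under both other scalings.

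Cell identity was checked on marker genes. The integrin Itgax (CD11c) averaged 340.3 TPM in untreated B6 and 321 TPM in untreated PWD, and the MHC class II gene H2-Aa averaged 1894 and 1114 TPM. Lyz2, the lysozyme of macrophages and other myeloid cells, averaged 7415 and 5103 TPM, and the macrophage receptor Csf1r 323 and 189.9 TPM. Zbtb46, a factor of conventional dendritic cells, averaged 12.5 and 9.84 TPM. Flt3 and Xcr1, also dendritic cell markers, were too low to be tested. The cultures thus expressed both dendritic cell and macrophage markers. In bulk RNA, fewer cells of a type and less RNA per cell cannot be told apart.

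Interferon-stimulated genes were the clearest group with a larger rise in PWD. All 43 genes of the list were tested. 29 of them rose more in PWD, 2 rose less and 12 were not called, and the median difference over the list was 0.82 against 0.14 over all genes. The median change after LPS was 1.85 in B6 and 2.97 in PWD. Of the whole list, 42 of 43 genes were lower in untreated PWD than in untreated B6 and 40 were lower after LPS, against 19.7% and 19% of all tested genes. Of the 29 with a larger rise these were 28 and 27. In TPM, 27 of the 29 gained less in PWD than in B6. The larger rise is thus one of ratio, from a lower start to a level still below that of B6. The counts were similar within mice 1 and 2 (27 higher, 1 lower) and within mice 3 and 4 (29 higher, 2 lower), and median-of-ratios scaling gave 28 and 3 and quantile normalization 37 and 2.

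Ifit1, an RNA-binding antiviral protein (chr19:34640871-34650009, plus strand, mm10), stood at 120.4, 95.4, 110.2 and 134 TPM in the untreated and 633, 627, 756 and 608 TPM in the LPS-treated B6 libraries. It stood at 4.04, 3.62, 4.5 and 5.17 TPM in the untreated and 136, 194, 189.8 and 165 TPM in the LPS-treated PWD libraries. Untreated PWD cells were far below untreated B6 cells, and the PWD libraries after LPS lay above the untreated and below the LPS-treated B6 libraries. The changes were 2.51 in B6 and 5.01 in PWD, a difference of 2.50 (SE 0.23, adjusted p = 2.63e-08). Isg15, a ubiquitin-like modifier, followed the same course from a mean of 148 to 1183 TPM in B6 and from 12.2 to 400.2 TPM in PWD, a difference of 1.91 (SE 0.24, adjusted p = 2.34e-06). Rtp4, a regulator of interferon responses, went from a mean of 67.2 to 171 TPM in B6 and from 2.902 to 76.7 TPM in PWD, a difference of 2.96 (SE 0.16, adjusted p = 3.59e-13).

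Mx2, a dynamin-like antiviral GTPase, crossed over. GENCODE M21 lists it on mm10 as a polymorphic pseudogene, a gene that is coding in some strains and not in others. Protein was not measured. Its values were 21.2, 19.4, 19.6 and 20.8 TPM in the untreated and 49.5, 54.05, 59.5 and 48.7 TPM in the LPS-treated B6 libraries. In PWD they were 2.82, 2.72, 3.05 and 4.85 TPM in the untreated and 66.4, 101, 93.6 and 81.5 TPM in the LPS-treated PWD libraries. PWD was lowest before LPS and highest after it, with no overlap of the groups, and the difference was 2.98 (SE 0.23, adjusted p = 4.13e-10). Ifi44l was listed at 0 in all 8 B6 libraries and stood at 0.258, 0.476, 0.505 and 0.733 TPM in the untreated and 10.6, 16.4, 15.5 and 14.2 TPM in the LPS-treated PWD libraries, so no fold between the strains is given. Irf9, the DNA-binding subunit of ISGF3, changed by 0.19 in B6 and 1.74 in PWD (1.56 difference), going from a mean of 55.5 to 63.1 TPM in B6 and from 16.4 to 55.6 TPM in PWD. After LPS the strain difference in Irf9 level was -0.18 and not called (adjusted p = 0.206). Many of these genes belong to families of near-identical copies (Ifit, Mx, Oas, Gbp), between which the authors' counting could split reads, so single members are uncertain.

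**Figure D2:**
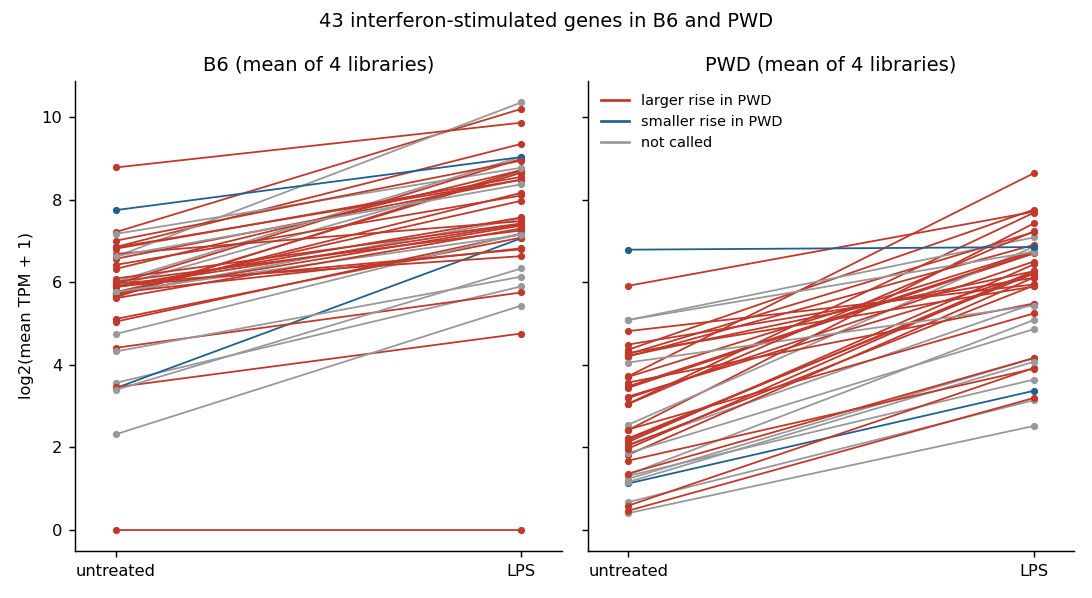
Mean level of each of the 43 interferon-stimulated genes, as log2 of the mean TPM + 1 over 4 libraries, in untreated and LPS-treated cells of B6 (left) and PWD (right); red lines rose more in PWD, blue lines less, grey lines were not called. Most lines start lower in PWD and climb more steeply, and most end points stay below those of B6; the flat red line at 0 in B6 is Ifi44l.

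The guanylate-binding proteins and immunity-related GTPases, interferon-inducible GTPases that act on pathogen vacuoles, had 8 of 18 members higher and 2 lower (10 and 2 in mice 1 and 2, 7 and 2 in mice 3 and 4), with a list median of 0.57. Over all tested genes 16% were higher and 7.5% lower. Irgm1, a regulator of the family, went from a mean of 109 to 255 TPM in B6 and from 8.15 to 80.7 TPM in PWD, a difference of 1.94 (SE 0.21, adjusted p = 1.52e-07). Gbp2b was higher in PWD throughout, going from a mean of 1.05 to 2.39 TPM in B6 and from 7.93 to 68.9 TPM in PWD (2.23 difference). Iigp1 went the other way. It stood at 1.3, 0.955, 1.91 and 2.67 TPM in the untreated and 25.9, 25.6, 42.6 and 37.2 TPM in the LPS-treated B6 libraries, and at 0, 0, 0 and 0.04298 TPM in the untreated and 0.28, 0.553, 0.454 and 0.579 TPM in the LPS-treated PWD libraries. The B6 libraries after LPS were all above 25 TPM and no PWD library reached 1 TPM, and the difference was -3.12 (SE 0.23, adjusted p = 1.36e-10) but -1.91 with a pseudocount of 0.1 TPM. Apol7c (apolipoprotein L family) behaved likewise, going from a mean of 14.9 to 178 TPM in B6 and from 0.0595 to 0.248 TPM in PWD. How many PWD reads of such genes are lost on mm10, a C57BL/6J genome, was not tested.

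Interferon beta itself rose less in PWD. Ifnb1 averaged 3.43 TPM in LPS-treated B6 and 0.618 TPM in LPS-treated PWD, a difference in response of -0.92 (SE 0.31, adjusted p = 0.0306) that was -0.24 and no longer called with a pseudocount of 0.1 TPM, and that lost the call without any of 6 of the 16 libraries. Of 24 interferon and cytokine signalling genes, 6 were higher and 3 lower (7 and 5 with the mouse as a block). The direction of the counts turned between settings, with 7 and 2 in mice 1 and 2, 2 and 8 in mice 3 and 4, 5 and 13 with median-of-ratios scaling. Irf8, a factor of dendritic cell and macrophage development, rose in B6 (1.04) and had a change of 0.01 in PWD, where it stood at 11.2, 12.2, 12.1 and 11.4 TPM after LPS against 96.3, 82.5, 84.4 and 88.04 TPM in B6. Ifngr1, the interferon gamma receptor chain, fell by 1.61 in B6, to 14.4 TPM, and had a change of -0.20 in PWD, where it stayed at 34.2 TPM.

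The promoters of 5 genes of the interferon and NF-kB arms show where the letters of the 2 motifs lie. Each line gives the 250 bases before the RefSeq start site (GRCm38.p6, a C57BL/6J sequence, not that of PWD), 5′ to 3′ on the gene's strand, with matches in capitals. For Ifit1, Isg15, Irgm1 and Cxcl10 the capitals mark GAAA, any 2 bases and GAAA again, the core of the interferon-stimulated response element bound by ISGF3 and IRFs, on either strand. For Il6 they mark GGG, any 2 bases and TTTCC, a core of the NF-kB site.
Ifit1 (chr19:34640639-34640888, plus strand): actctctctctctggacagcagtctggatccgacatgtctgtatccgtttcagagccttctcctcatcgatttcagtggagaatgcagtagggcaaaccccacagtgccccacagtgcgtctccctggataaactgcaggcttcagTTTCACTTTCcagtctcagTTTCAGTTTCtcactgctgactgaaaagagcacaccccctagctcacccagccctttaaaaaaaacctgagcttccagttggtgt
Isg15 (chr4:156200819-156201068, minus strand): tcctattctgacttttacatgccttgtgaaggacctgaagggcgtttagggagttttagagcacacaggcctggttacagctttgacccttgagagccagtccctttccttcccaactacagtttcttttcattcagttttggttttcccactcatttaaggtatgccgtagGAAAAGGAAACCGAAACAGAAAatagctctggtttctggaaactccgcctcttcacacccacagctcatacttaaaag
Irgm1 (chr11:48871421-48871670, minus strand): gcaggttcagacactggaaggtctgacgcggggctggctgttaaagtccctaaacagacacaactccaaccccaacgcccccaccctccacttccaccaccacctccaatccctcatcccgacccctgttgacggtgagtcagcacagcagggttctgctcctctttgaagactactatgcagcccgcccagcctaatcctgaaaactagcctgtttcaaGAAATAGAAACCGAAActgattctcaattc
Cxcl10 (chr5:92348890-92349139, minus strand): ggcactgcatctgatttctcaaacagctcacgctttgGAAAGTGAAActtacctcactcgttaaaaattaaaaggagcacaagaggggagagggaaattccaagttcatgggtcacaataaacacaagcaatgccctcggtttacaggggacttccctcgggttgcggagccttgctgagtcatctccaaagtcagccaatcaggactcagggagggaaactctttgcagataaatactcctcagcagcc
Il6 (chr5:30012864-30013113, plus strand): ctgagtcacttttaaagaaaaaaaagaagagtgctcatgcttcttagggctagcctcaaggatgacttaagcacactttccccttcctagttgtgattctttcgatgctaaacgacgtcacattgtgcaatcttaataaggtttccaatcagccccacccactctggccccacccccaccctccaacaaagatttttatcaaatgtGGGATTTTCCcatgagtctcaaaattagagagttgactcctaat
Ifit1, Isg15 and Irgm1 had 2, 3 and 2 matches within 110 bases of the start, overlapping in Isg15 and Irgm1, and all 3 genes rose more in PWD. Cxcl10, a chemokine of the interferon program, had its 1 match farther out, from -213 to -204, and was not called (difference 0.24, SE 0.24, adjusted p = 0.503), though it was called at 0.93 after quantile normalization. These genes were chosen with earlier results of these data known, and a link between matches and response was not tested.

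In windows of 300 bases (250 before and 50 after the start), the first motif on either strand was found in 3.44% of all 32851 promoters in the table and in 4.16% of the 9419 tested genes that had one. It was found in 54.5% of the 33 interferon-stimulated genes with an entry. Among genes with a larger rise in PWD the share was 13.9% of 267, and 10.1% of the 247 outside the interferon-stimulated list. Among genes with a smaller rise it was 11.1% of 350, and among genes with a smaller fall 2.47% of 1298. The second motif, searched on both strands too, stood in 1.63% of all promoters, 2.17% of those of tested genes, 3.0% of those with a larger rise and 4.57% of those with a smaller rise. A match is a string of letters, not a bound site.

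The inflammatory cytokines split in both directions. Of 27 tested, 7 were higher and 11 lower in PWD (8 and 8 in mice 1 and 2, 6 and 12 in mice 3 and 4), and the list median was -0.13. The shares over all tested genes were 16% higher and 7.5% lower. The subunits of IL-12, the cytokine that drives Th1 responses, parted. Il12b, the p40 subunit shared with IL-23 (chr11:44400063-44414033, plus strand, mm10), stood at 1.55, 0.835, 0.926 and 1.61 TPM in the untreated and 278, 149, 340.1 and 392.2 TPM in the LPS-treated B6 libraries, and at 1.75, 2.99, 2.097 and 1.84 TPM in the untreated and 833, 1073, 1222 and 1298 TPM in the LPS-treated PWD libraries. All 4 PWD libraries after LPS were above all 4 of B6, and the rise was larger in PWD by 1.49 (SE 0.33, adjusted p = 0.00194). Il12a, the p35 subunit (chr3:68690644-68698547, plus strand, mm10), stood at 0.367, 0.727, 0.167 and 0.349 TPM in the untreated and 19.1, 18.6, 13.8 and 16.6 TPM in the LPS-treated B6 libraries. It was listed at 0 in the 4 untreated PWD libraries and stood at 0.993, 1.29, 1.71 and 1.98 TPM after LPS. Each B6 library after LPS was thus above 13 TPM and each PWD library below 2 TPM. The rise of Il12a was smaller in PWD, a difference of -2.39 (SE 0.20, adjusted p = 1.52e-09), or -1.24 with a pseudocount of 0.1 TPM. Il27, a related subunit, also rose less, going from a mean of 1.05 to 39.2 TPM in B6 and from 0.477 to 7.16 TPM in PWD (-1.80 difference).

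Il6, a cytokine of the acute phase, stood at 4.01, 2.57, 4.004 and 4.42 TPM in the untreated and 876, 663, 1113 and 1119 TPM in the LPS-treated B6 libraries, and at 4.42, 5.33, 5.01 and 6.35 TPM in the untreated and 438, 494, 506 and 520.1 TPM in the LPS-treated PWD libraries. Levels before LPS overlapped, and after LPS every B6 library was above every PWD library. The rise was smaller in PWD, a difference of -1.33 (SE 0.23, adjusted p = 1.87e-04), and the change was 6.29 in C57, beside 6.29 in PWD. Tnf went the other way by less, with changes of 2.25 in B6 and 2.81 in PWD, a difference of 0.56 (SE 0.16, adjusted p = 0.0137). After LPS it stood at 629.6, 518, 669 and 631 TPM in B6 and 585, 695, 680.0 and 694 TPM in PWD, values that overlap. Il10, an anti-inflammatory cytokine, went from a mean of 0.0831 to 11.8 TPM in B6 and from 0 to 4.33 TPM in PWD, a difference of -1.09 (SE 0.21, adjusted p = 2.78e-04) that was no longer called with a pseudocount of 0.1 TPM or with mice 3 and 4 alone. Il1b (IL-1 beta) was higher in PWD before and after LPS, with means of 407 and 6593 TPM against 164 and 3820.0 TPM. Its smaller rise (-0.50, SE 0.18, adjusted p = 0.0492) lost the call without any of 13 of the 16 libraries. Csf2, the gene of GM-CSF, averaged 6.37 TPM after LPS in PWD and 0.333 TPM in B6, a larger rise by 1.85 (SE 0.23, adjusted p = 8.65e-07). Tnfsf10, the death ligand TRAIL, averaged 17.7 TPM after LPS in B6 and 1.28 TPM in PWD.

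Among chemokines 7 of 25 were higher and 7 lower (6 and 6 in mice 1 and 2, 7 and 9 in mice 3 and 4), against 16% and 7.5% of all tested genes. Ccl5, which draws T cells, stood at 245, 166, 202 and 203 TPM in the untreated and 4283, 4056, 4394 and 4929 TPM in the LPS-treated B6 libraries, and at 4.98, 5.63, 6.26 and 9.404 TPM in the untreated and 686, 886, 964 and 984 TPM in the LPS-treated PWD libraries. As for Ifit1, every PWD library was below its B6 counterpart in both states, and the rise was larger in PWD by 2.44 (SE 0.25, adjusted p = 1.94e-07). Its gain in TPM was 4212 in B6 and 873 in PWD. Ccl22, made by mature dendritic cells, had the same pattern, going from a mean of 757 to 5129 TPM in B6 and from 109 to 1438 TPM in PWD (0.96 difference). Ccl2, the monocyte chemoattractant (chr11:82035571-82037453, plus strand, mm10), changed in opposite directions. It stood at 348, 299.5, 281 and 339 TPM in the untreated and 425, 420.5, 395 and 422 TPM in the LPS-treated B6 libraries, and at 365, 399.8, 422 and 429 TPM in the untreated and 131, 166, 174 and 153 TPM in the LPS-treated PWD libraries. PWD was above B6 before LPS and below it after, with no overlap in either state, and the difference was -1.77 (SE 0.12, adjusted p = 4.24e-11). Ccl20, which attracts CCR6-positive cells, reached 5.41, 5.12, 9.87 and 9.09 TPM in LPS-treated PWD and at most 0.226 TPM in LPS-treated B6. Cxcl9 averaged 15.4 TPM after LPS in B6 and 1.59 TPM in PWD, and its smaller rise (-1.60) was -0.71 and not called with a pseudocount of 0.1 TPM.

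**Figure D3:**
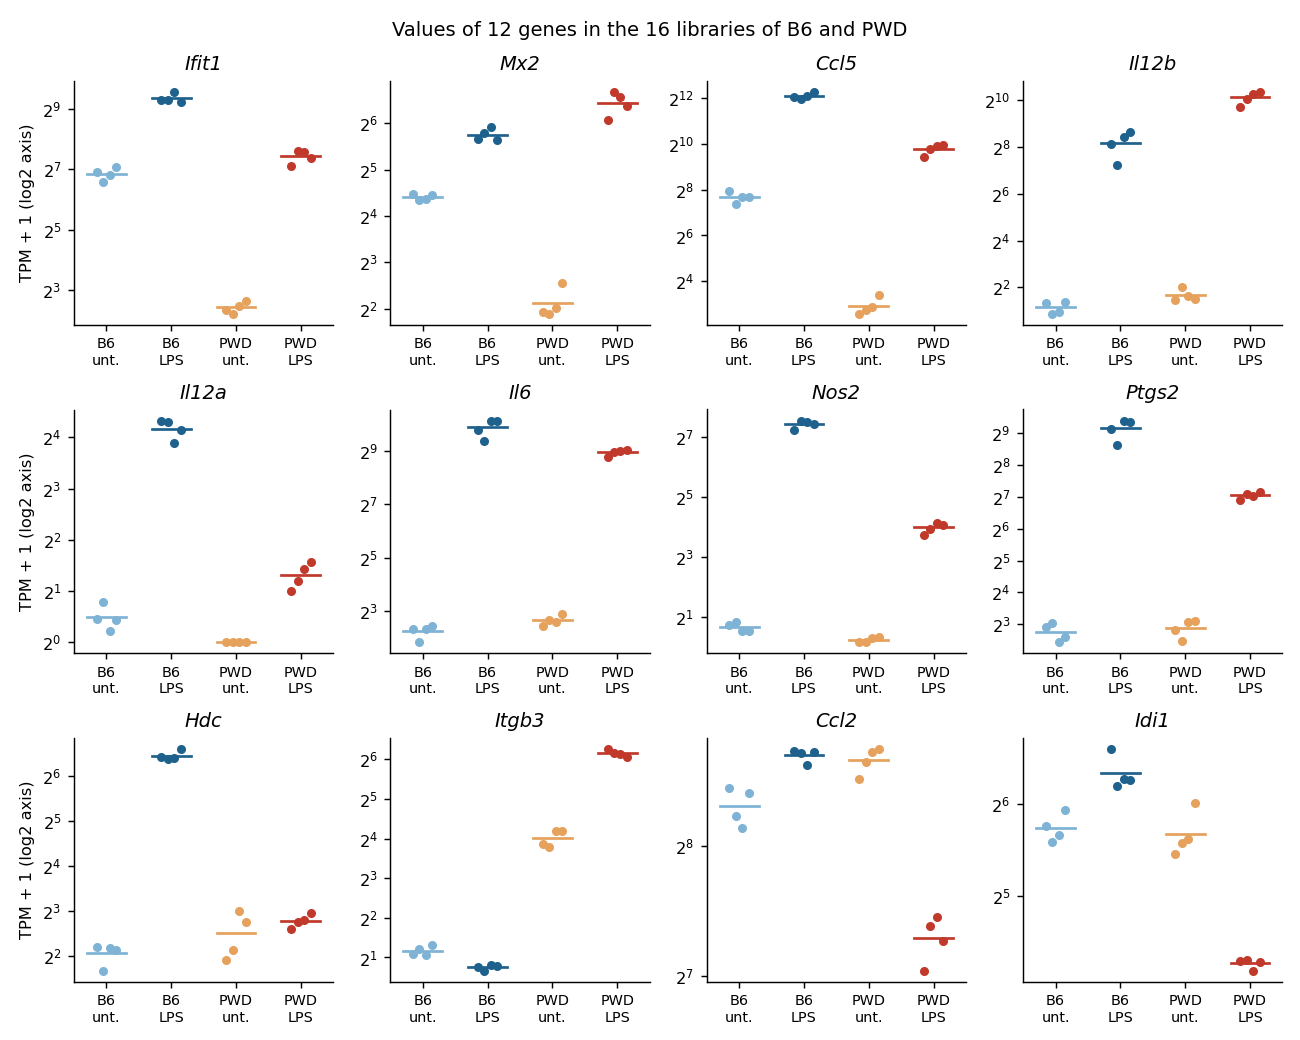
TPM + 1 on a log2 axis for 12 genes in the 16 libraries of untreated (unt.) and LPS-treated B6 and PWD; points are libraries and bars are group means. Ifit1, Mx2 and Ccl5 start low in PWD; Il12a, Nos2 and Hdc end far lower in PWD than in B6; Itgb3 rises only in the PWD libraries, and Ccl2 and Idi1 fall there while they rise in B6.

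Several enzymes that make small mediators rose less in PWD. The list of enzymes for nitric oxide, prostaglandins and itaconate had 5 of 22 higher and 8 lower (7 and 6 in mice 1 and 2, 3 and 8 in mice 3 and 4). Nos2, the inducible nitric oxide synthase (chr11:78920787-78960254, plus strand, mm10), stood at 0.645, 0.746, 0.427 and 0.42 TPM in the untreated and 148, 185, 179 and 171 TPM in the LPS-treated B6 libraries, and at 0.106, 0.105, 0.209 and 0.234 TPM in the untreated and 12.2, 14.3, 16.6 and 15.7 TPM in the LPS-treated PWD libraries. All LPS-treated PWD libraries stayed below 17 TPM and all of B6 were above 147 TPM. The rise was smaller by limma, a difference of -3.03 (SE 0.17, adjusted p = 6.61e-13), or -2.205 with a pseudocount of 0.1 TPM. Ptgs2 (cyclooxygenase-2), which makes prostaglandin precursors, stood at 6.58, 7.16, 4.399 and 5.11 TPM in the untreated and 557, 395, 676 and 662 TPM in the LPS-treated B6 libraries, and at 5.98, 4.51, 7.36 and 7.48 TPM in the untreated and 120.1, 136, 129 and 141 TPM in the LPS-treated PWD libraries. Levels before LPS overlapped and levels after it did not, a smaller rise with a difference of -2.19 (SE 0.22, adjusted p = 6.73e-08).

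Hdc, histidine decarboxylase, which makes histamine (chr2:126593667-126619299, minus strand, mm10), had the most negative difference among the named genes. Its values were 3.62, 2.19, 3.49 and 3.402 TPM in the untreated and 84.2, 81.99, 82.7 and 95.5 TPM in the LPS-treated B6 libraries. In PWD they were 2.77, 3.41, 7.004 and 5.78 TPM in the untreated and 5.097, 5.74, 5.92 and 6.704 TPM in the LPS-treated PWD libraries. B6 rose by 4.39, and the change in PWD was 0.32, with the treated PWD libraries inside the range of the untreated ones, a difference of -4.08 (SE 0.24, adjusted p = 2.43e-12). Hdc is also a marker of mast cells and basophils. In the list of those markers Hdc was the 1 called lower and Kit the 1 called higher (2 were higher with the mouse as a block), and the summed level was 111 to 230.0 TPM in untreated and 141 to 284 TPM in LPS-treated B6, and 1030.0 to 1312 TPM in untreated and 688 to 960.4 TPM in LPS-treated PWD. The highest single member reached 946.6 TPM, so the sum leans on 1 gene. Kynu, kynureninase of tryptophan breakdown, rose in B6 (1.54) and fell in PWD (-0.28), going from a mean of 18.8 to 56.2 TPM in B6 and from 12.5 to 10.1 TPM in PWD. Hamp, hepcidin, an iron-regulating peptide, averaged 18.2 TPM in LPS-treated B6 and 0.257 TPM in LPS-treated PWD, with untreated PWD listed at 0.

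No difference was called for the receptor of LPS itself. Tlr4 fell in both strains, by 0.84 in B6 and 0.75 in PWD, and the difference of 0.09 (SE 0.14, adjusted p = 0.705) was not called. It stood at 97.9, 119.6, 79.6 and 92.6 TPM in untreated B6 and 81.1, 81.4, 96.7 and 96.1 TPM in untreated PWD, which overlap. Cd14 rose in both strains, by 1.21 and 1.42, with PWD at the higher level throughout (439 and 1172 TPM against 193 and 448 TPM in B6), and its difference of 0.21 (SE 0.14, adjusted p = 0.275) was not called either. With mice 1 and 2 alone both were called higher, at 0.48 for Tlr4 and 0.52 for Cd14, and without structural RNA Cd14 was called at 0.29. Over the 29 genes of the receptor and adaptor list, 4 were higher and 3 lower, against 16% and 7.5% of all tested genes. The direction turned between settings, with 9 and 2 in mice 1 and 2, 1 and 5 in mice 3 and 4, 4 and 10 with median-of-ratios scaling. Tlr3, a receptor for double-stranded RNA, rose in B6 from 2.78, 3.04, 3.79 and 5.304 TPM to 18.2, 15.6, 25.3 and 20.8 TPM and stayed below 1 TPM in every PWD library, a difference of -2.12 (SE 0.22, adjusted p = 7.44e-08). Tlr13 fell more in PWD (-1.05 and -2.45), and Tlr2 rose more (0.36 and 1.00). Cd180, a TLR4-like receptor that dampens LPS signals, had a change of 0.14 in B6 and fell by 1.44 in PWD, to 9.44, 11.4, 11.2 and 11.2 TPM against 39.1, 37.8, 44.9 and 43.7 TPM in B6.

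Among 30 NF-kB factors and brakes, 7 were higher and 0 lower by limma (10 and 0 at an unadjusted p under 0.05), and the counts were 13 and 0 in mice 1 and 2, 3 and 0 in mice 3 and 4, 6 and 5 with median-of-ratios scaling. Over all tested genes 16% were higher and 7.5% lower, and the list median of 0.12 was near the 0.14 of all genes. Tnip1, a partner of the brake A20, rose more in PWD, going from a mean of 63.9 to 120.5 TPM in B6 and from 64.9 to 209 TPM in PWD (0.77 difference), and so did the RNase Zc3h12c (0.80). The immediate early and ERK feedback list had 13 of 32 higher and 3 lower, with a list median of 0.31 and counts of 15 and 0 in mice 1 and 2, 9 and 6 in mice 3 and 4, 11 and 9 with median-of-ratios scaling. Dusp6, the phosphatase that switches off ERK, fell in B6 from 37.1, 40.9, 31.7 and 32.6 TPM to 8.16, 7.42, 10.1 and 7.95 TPM. In PWD it fell less, from 22.7, 17.3, 24.1 and 27.2 TPM to 17.2, 17.7, 19.7 and 16.2 TPM, a change of -0.34. The 2 PWD groups overlapped and the 2 B6 groups did not, a smaller fall by 1.62 (SE 0.17, adjusted p = 1.25e-07). Egr1 and Egr3, growth-factor-induced transcription factors, fell in B6 (-1.37 and -1.57) and had changes of -0.22 and -0.01 in PWD. Dusp4 rose more in PWD, going from a mean of 2.91 to 8.17 TPM in B6 and from 2.08 to 22.2 TPM in PWD. Of the 32 genes of the list, 14 were higher in PWD than in B6 before LPS and 16 after it. The shares over all tested genes were 37.2% and 49.7%.

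Genes of MHC class I presentation had 8 of 20 lower and 1 higher, with a list median of -0.36, but the count was 3 lower and 3 higher after quantile normalization and 1 lower with mice 1 and 2 alone. The median change after LPS was 1.02 in B6, 0.75 in PWD and 0.67 in C57. Of the 20, 19 were lower in PWD than in B6 before LPS and 20 after it, against 19.7% and 19% of all tested genes. H2-Q7 went from a mean of 14.6 to 32.5 TPM in B6 and from 2.05 to 2.92 TPM in PWD (-0.73 difference), and Q-region genes are near-identical copies, so it is uncertain. Tap1, a peptide transporter subunit, rose more in PWD (0.64), going from a mean of 81.3 to 212 TPM in B6 and from 14.9 to 63.1 TPM in PWD. MHC class II presentation had 2 of 14 higher and 0 lower by limma (4 and 0 at an unadjusted p under 0.05), with 4 and 0 when the mouse was a block and 5 and 0 in mice 1 and 2, 0 and 1 in mice 3 and 4. The higher ones were H2-Oa and H2-Ob, the chains of the class II peptide-loading inhibitor, both below 2 TPM on average in PWD and neither called after median-of-ratios scaling. The dendritic cell maturation list had 3 of 27 higher and 5 lower, and the direction turned between settings, with 5 and 3 in mice 1 and 2, 2 and 9 in mice 3 and 4, 2 and 11 with median-of-ratios scaling. Traf1, an adaptor of TNF receptors, rose more in PWD and reached 226 TPM against 266 TPM in B6 (1.04 difference).

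The inflammasome and cell death list had 5 of 28 higher and 10 lower, and the direction turned between the pairs of mice, with 7 and 2 in mice 1 and 2, 4 and 12 in mice 3 and 4, 5 and 16 with median-of-ratios scaling. Mlkl, the pore-forming executor of necroptosis, stood at 9.92, 7.64, 10.7 and 10.1 TPM in the untreated and 40.8, 43.5, 45.6 and 44.1 TPM in the LPS-treated B6 libraries, and at 7.91, 8.904, 8.65 and 9.82 TPM in the untreated and 11.1, 13.4, 13.2 and 11.3 TPM in the LPS-treated PWD libraries. Untreated levels overlapped and treated levels did not, a smaller rise with a difference of -1.65 (SE 0.15, adjusted p = 6.25e-09). Nlrp3, the inflammasome sensor, rose more in PWD, to 232, 226, 219 and 218 TPM against 123, 125, 145 and 125 TPM in B6 (0.90, SE 0.14, adjusted p = 2.36e-05). Fas, a death receptor, also rose more (1.10), going from a mean of 37.95 to 66.8 TPM in B6 and from 38.4 to 145 TPM in PWD.

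Smaller falls were called for many ribosome biogenesis and cell cycle genes, which make up 19 and 16 of the 1633 genes of that class. Of 24 ribosome biogenesis genes, 19 fell less in PWD and 0 fell more by limma (20 and 0 at an unadjusted p under 0.05). The median changes were -1.43 in B6 and -0.94 in PWD, with a median difference of 0.64. In C57 the median change was -0.58, so the median fall was larger in B6 than in both other strains. Of the whole list, 5 genes were higher in PWD than in B6 before LPS and 22 after it, against 37.2% and 49.7% of all tested genes. Bop1, a processing factor of the large ribosomal subunit, stood at 28.6, 22.8, 25.2 and 27.5 TPM in the untreated and 11.7, 10.7, 11.8 and 11.4 TPM in the LPS-treated B6 libraries, and at 31.2, 30.2, 36.95 and 39.2 TPM in the untreated and 37.3, 37.2, 33.9 and 39.5 TPM in the LPS-treated PWD libraries. B6 fell in all 4 mice while the PWD groups overlapped, a difference of 1.23 (SE 0.15, adjusted p = 6.58e-07). Gar1, Wdr12 and Polr1b, which modify, process and transcribe ribosomal RNA, fell in both strains and less in PWD (differences of 0.98, 0.92 and 0.86). The list had 17 higher and 0 lower after median-of-ratios scaling and 13 higher with mice 3 and 4 alone, where the median of all genes was -0.06. Mdn1, an AAA ATPase of ribosome assembly outside the list, fell in B6 (-1.34) and rose in PWD (0.91).

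Of 32 cell cycle genes, 16 fell less in PWD and 1 fell more, and the median changes were -1.39 in B6 and -0.82 in PWD. In C57 the median change was -0.82 too, so here also the median fall was larger in B6 than in both other strains. Ccnb1, the mitotic cyclin B1, stood at 30.1, 31.1, 22.7 and 31.4 TPM in the untreated and 7.17, 5.61, 6.12 and 5.56 TPM in the LPS-treated B6 libraries, and at 25.6, 26.7, 34.4 and 31.9 TPM in the untreated and 20.0, 21.9, 19.4 and 19.3 TPM in the LPS-treated PWD libraries. The untreated groups overlapped, and after LPS the lowest PWD library held more than the highest of B6, a difference of 1.54 (SE 0.17, adjusted p = 1.73e-07). Cdc20 and Plk1, which drive mitosis, differed by 1.57 and 1.48. Prc1, a spindle midzone protein, fell in B6 from 26.8 to 6.18 TPM and had a change of 0.22 in PWD, at 46.2 TPM. Of the 32 genes, 27 were higher in PWD than in B6 already before LPS and 28 after it. Over all tested genes these shares were 37.2% and 49.7%. Of the 16 with a smaller fall, 12 were higher before LPS. The counts were 17 and 1 in mice 1 and 2, 13 and 1 in mice 3 and 4, 16 and 5 with median-of-ratios scaling. Quantile normalization gave 16 and 10 in place of 16 and 1.

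The exception in the cell cycle list was Ccnd1, cyclin D1 of the G1 phase. It stood at 32.1, 29.6, 29.9 and 44.3 TPM in the untreated and 15.9, 19.4, 15.6 and 14.5 TPM in the LPS-treated B6 libraries, and at 34.4, 39.1, 49.9 and 46.7 TPM in the untreated and 4.02, 4.104, 4.73 and 3.63 TPM in the LPS-treated PWD libraries. Untreated levels overlapped and the treated PWD libraries were all below 5 TPM, a larger fall with a difference of -2.08 (SE 0.17, adjusted p = 1.02e-09). Other genes with a smaller fall were low in PWD from the start. Cgnl1, a cell junction protein, fell in B6 from 39.1 to 8.25 TPM and was below 1 TPM in all 8 PWD libraries. Hepacam2, Flnc and Fam43a likewise began at 0.649, 1.23 and 3.16 TPM in PWD against 12.5, 15.3 and 13.1 TPM in B6.

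Part of the genes of cholesterol synthesis and uptake fell more in PWD. Of 23 tested, 11 were lower and 1 higher, with median changes of -0.9995 in B6 and -1.53 in PWD. Of the 11, 9 were larger falls and 2 rose in B6. Among the 23, 18 were higher in PWD than in B6 before LPS and 12 after it, against 37.2% and 49.7% of all tested genes. Idi1, an isomerase of the mevalonate pathway, stood at 53.6, 47.3, 49.7 and 60.2 TPM in the untreated and 96.04, 72.2, 76.6 and 75.6 TPM in the LPS-treated B6 libraries, and at 43.03, 46.7, 48.1 and 63.5 TPM in the untreated and 18.6, 18.9, 17.3 and 18.5 TPM in the LPS-treated PWD libraries. Untreated levels overlapped, B6 rose in all 4 mice and PWD fell in all 4, a difference of -1.99 (SE 0.15, adjusted p = 2.07e-10). The list medians of mice 1 and 2 and of mice 3 and 4 were both close to that of all mice, and the counts were 11 and 7 lower. Among lipid efflux genes 5 of 21 were higher and 5 lower, and the direction turned between the pairs of mice, with 7 and 2 in mice 1 and 2, 1 and 6 in mice 3 and 4. Abca1, the cholesterol exporter, rose more in PWD, to 65.2 TPM against 22.99 TPM, and Ch25h, which makes 25-hydroxycholesterol, rose less (-1.05) from a higher start.

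Genes with opposite signs included an integrin, a junction protein and an antibody receptor. Itgb3, the integrin beta 3 chain (chr11:104608000-104670476, plus strand, mm10), stood at 1.12, 1.33, 1.07 and 1.48 TPM in the untreated and 0.686, 0.588, 0.752 and 0.737 TPM in the LPS-treated B6 libraries, and at 13.6, 12.9, 17.1 and 17.2 TPM in the untreated and 75.7, 70.95, 68.8 and 65.6 TPM in the LPS-treated PWD libraries. The treated B6 libraries were below the untreated ones and the treated PWD libraries above, a difference of 2.55 (SE 0.15, adjusted p = 9.64e-13). Stambpl1, a deubiquitinase, went from a mean of 16.04 to 8.798 TPM in B6 and from 12.2 to 37.5 TPM in PWD (2.36). Cldn1, a tight junction protein, went from a mean of 27.3 to 8.59 TPM in B6 and from 12.97 to 17.7 TPM in PWD (2.00), and Irak1bp1, an IRAK1-binding protein, from a mean of 0.661 to 0.124 TPM in B6 and from 2.64 to 15.5 TPM in PWD (2.73). In the other direction, Fcgr1, the high-affinity IgG receptor, stood at 124, 94.1, 95.2 and 123 TPM in the untreated and 162, 163, 178 and 187 TPM in the LPS-treated B6 libraries, and at 19.2, 19.9, 27.4 and 31.3 TPM in the untreated and 7.92, 11.1, 12.4 and 9.51 TPM in the LPS-treated PWD libraries. It rose in B6 and fell in PWD in every mouse, a difference of -1.83 (SE 0.20, adjusted p = 1.22e-07). Ms4a4a went from a mean of 20.8 to 49.05 TPM in B6 and from 21.03 to 10.3 TPM in PWD (-2.15), and Net1 from a mean of 26.5 to 45 TPM in B6 and from 53.2 to 19.8 TPM in PWD (-2.12).

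Some genes reached levels above 10 TPM in LPS-treated PWD cells while B6 stayed below 1 TPM on average. Krt6b, a keratin of stressed epithelium, was at 0 to 0.122 TPM in the 8 B6 libraries and stood at 2.04, 1.07, 2.11 and 1.2 TPM in the untreated and 32.8, 34.04, 36.6 and 33.2 TPM in the LPS-treated PWD libraries, a difference of 3.69 (SE 0.16, adjusted p = 1.09e-14). Has1, a hyaluronan synthase, reached 25.1, 21.6, 26.02 and 22.1 TPM in LPS-treated PWD against a mean of 0.5298 TPM in B6. Loxl2, a lysyl oxidase-like enzyme of collagen, and Csrp3, a muscle LIM protein, reached means of 22.02 and 12.2 TPM against 0.617 and 0 TPM in B6. Over the stromal, endothelial and erythroid markers, 8 of 13 were tested, 2 were higher and 1 lower, and their summed level was 12.5 to 19.4 TPM in untreated and 22.1 to 32 TPM in LPS-treated B6, and 19.4 to 26.7 TPM in untreated and 25.8 to 33.1 TPM in LPS-treated PWD. Of 22 epithelial-type secreted and barrier genes only 6 passed the filter on low values, of which Cldn1 was higher and Slpi, a protease inhibitor, lower (-1.30).

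Metabolic and stress genes moved in both directions. Glycolysis and hypoxia had 8 of 24 higher and 4 lower, and the direction turned between the pairs of mice, with 11 and 3 in mice 1 and 2, 2 and 5 in mice 3 and 4, 8 and 7 with median-of-ratios scaling. Slc2a3, a glucose transporter, had a change of -0.27 in B6 and rose in PWD from 6.92, 7.08, 11.9 and 10.6 TPM to 29, 36.05, 38.6 and 40.9 TPM (2.17, SE 0.23, adjusted p = 8.19e-08). Oxidative phosphorylation had 2 of 28 higher and 2 lower (5 and 0 in mice 1 and 2, 1 and 2 in mice 3 and 4, 0 and 9 with median-of-ratios scaling, 1 and 0 with the mouse as a block), and none of the 4 was called with the same sign in every alternative of the stricter set. The unfolded protein list had 1 of 24 lower and 0 higher by limma (2 and 2 at an unadjusted p under 0.05). As higher and lower, the counts were 6 and 0 in mice 1 and 2, 0 and 4 in mice 3 and 4, 0 and 6 with median-of-ratios scaling and 0 and 2 with the mouse as a block, and the 1 called lower was the chaperone Dnajb9 (-0.55). The antioxidant and metal list had 3 of 23 higher and 4 lower (4 and 2 in mice 1 and 2, 2 and 5 in mice 3 and 4, 2 and 8 with median-of-ratios scaling). Gpx1, glutathione peroxidase 1, fell in B6 from a mean of 588 to 275 TPM and only from 631 to 558 TPM in PWD (0.92). Lysosome and phagocytosis genes had 3 of 28 higher and 7 lower, with the direction turned between the pairs of mice (10 and 6 in mice 1 and 2, 2 and 9 in mice 3 and 4), and the latter include Mertk, a receptor for dying cells (-0.92), Fcgr1 and Fcgr4 (-1.14).

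**Figure D4:**
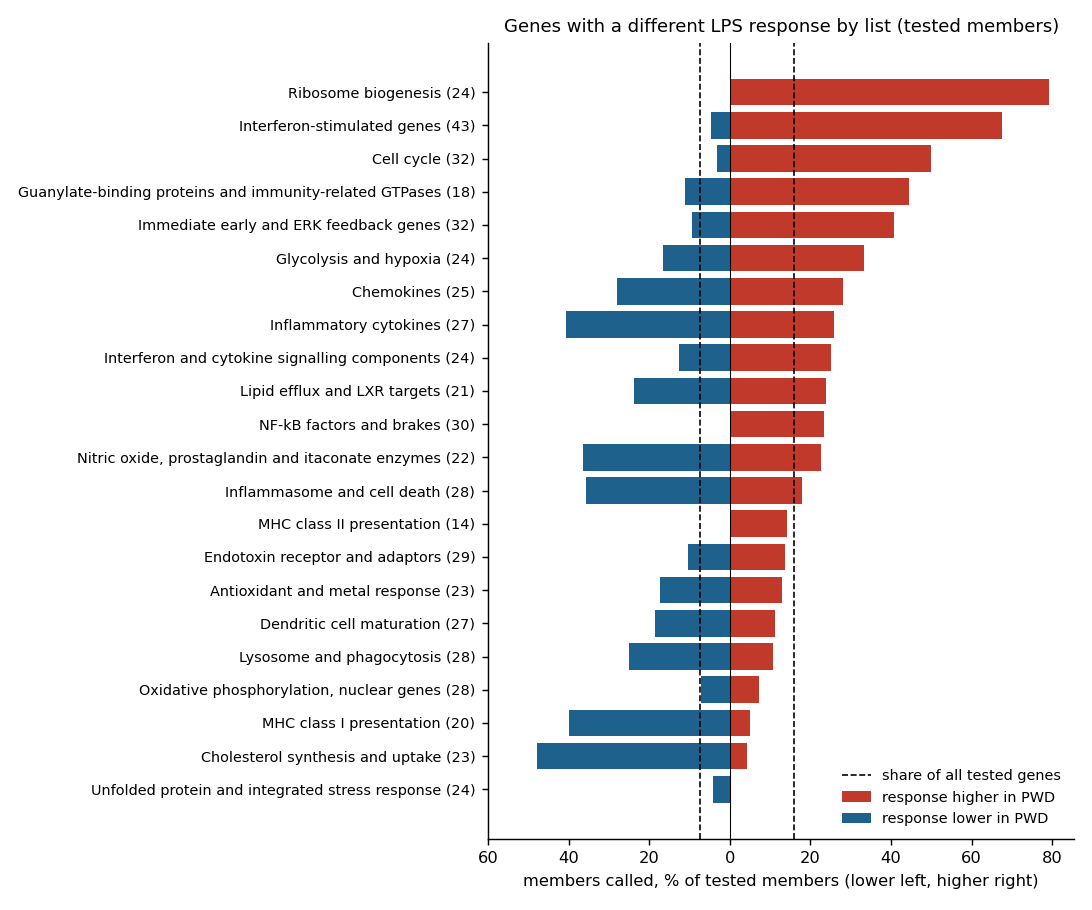
Share of the tested members of each pathway list with 10 or more of them (number in brackets, marker lists left out) whose response to LPS was called higher (red, right) or lower (blue, left) in PWD than in B6, in % of tested members; dashed lines mark the shares over all 13246 tested genes. Ribosome biogenesis (19 of 24), interferon-stimulated (29 of 43) and cell cycle genes (16 of 32) reach farthest right, and cholesterol genes (11 of 23), inflammatory cytokines (11 of 27) and MHC class I genes (8 of 20) farthest left.

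Markers of other cell types were read beside these results. Neutrophil and granulocyte precursor markers had 1 of 19 higher and 5 lower (1 and 9 with the mouse as a block) with a median of -0.46, and a summed level of 2486 to 2805 TPM in untreated and 2090.0 to 2466 TPM in LPS-treated B6, and 1980.0 to 3304 TPM in untreated and 1409 to 2108 TPM in LPS-treated PWD. Conventional dendritic cell markers had 3 of 16 higher and 4 lower, and macrophage and monocyte markers 3 of 17 higher and 2 lower, where the direction turned between settings (6 and 2 in mice 1 and 2, 1 and 5 in mice 3 and 4, 2 and 4 with median-of-ratios scaling). Over all tested genes 16% were higher and 7.5% lower. The summed dendritic cell level was 3977 to 5163 TPM in untreated and 3670.0 to 4180.0 TPM in LPS-treated B6, and 2062 to 3461 TPM in untreated and 1991 to 2735 TPM in LPS-treated PWD. The macrophage sum was 9351 to 11210.0 TPM in untreated and 6157 to 7625 TPM in LPS-treated B6, and 6006 to 8571 TPM in untreated and 4996 to 5406 TPM in LPS-treated PWD. These sums lean on single genes. The highest member reached 2243 TPM among the neutrophil, 2181 TPM among the dendritic cell and 7902 TPM among the macrophage markers. B cell and plasmacytoid markers, which include the interferon-stimulated gene Bst2, had 0 of 8 called by limma (0 higher and 1 lower at an unadjusted p under 0.05). T and NK cell markers summed to at most 2.99 TPM in the 16 libraries of B6 and PWD. The part of the neutrophil, dendritic cell and macrophage differences in the results above was not tested.

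The agreement of both pairs of mice differed by list. Interferon-stimulated genes had medians of 0.92 in mice 1 and 2 and 0.76 in mice 3 and 4, ribosome biogenesis 0.67 and 0.59, and cholesterol genes -0.49 and -0.48. The cell cycle list had 0.62 and 0.17, and the guanylate-binding proteins and immunity-related GTPases 0.78 and 0.19. Lists such as interferon signalling (0.17 and -0.34) changed sign with the median of all genes.

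**Figure D5:**
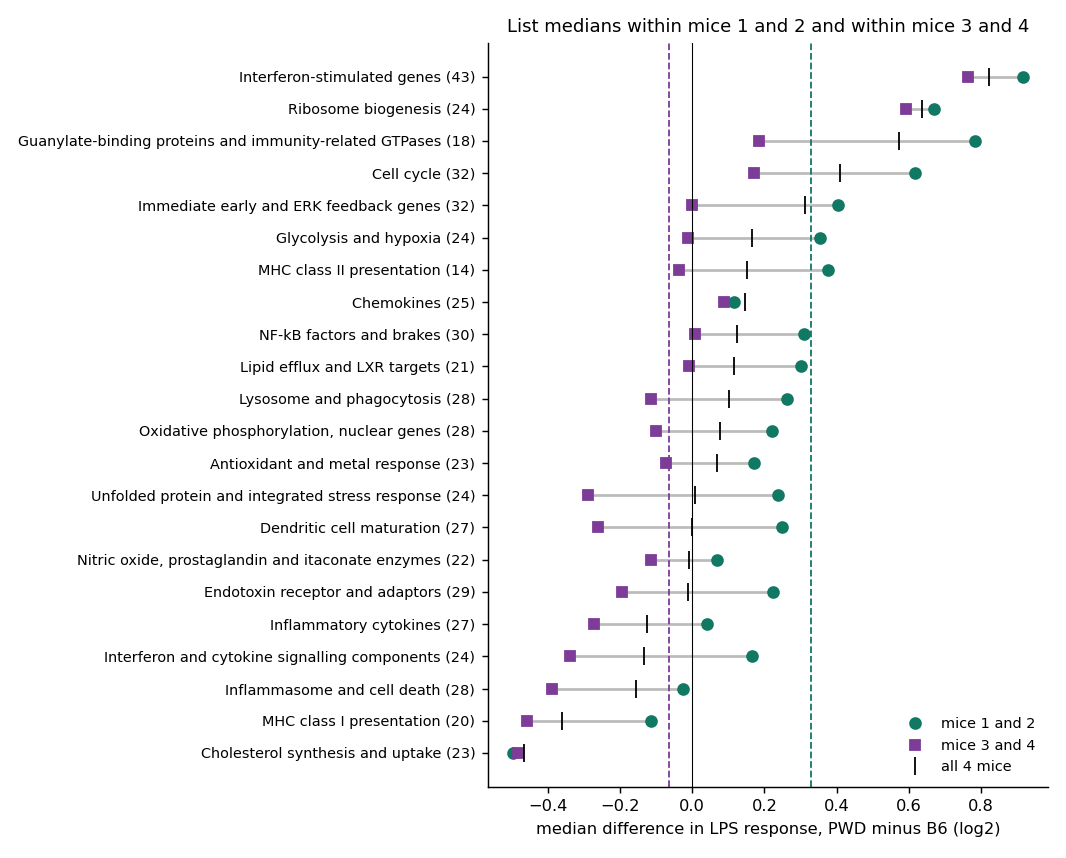
Median difference in LPS response, PWD minus B6, on the log2(TPM + 1) scale over the tested members of each pathway list with 10 or more of them (number in brackets), from mice 1 and 2 (circles), mice 3 and 4 (squares) and all 4 mice (bars); dashed lines mark the medians of all genes in each pair of mice, 0.33 and -0.06. Interferon-stimulated and ribosome biogenesis genes lie right of both dashed lines and cholesterol genes left of both in each pair, while lists in the middle shift with the dashed lines.

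The C57 libraries were set beside the contrast. The difference C57 minus B6, which shares the B6 libraries, was called higher for 1447 genes (10.9%) and lower for 449 (3.39%), and the difference PWD minus C57, which shares the PWD libraries, for 717 (5.41%) and 793 (5.99%). Against C57, 963 of the 3111 genes were also called with the same sign (7.27% of all tested genes). They were 257 of 376 with a larger rise, 188 of 1633 with a smaller fall, 181 of 483 with a smaller rise and 217 of 405 with a larger fall. The change in C57 was 3.21 for Ifit1, 1.68 for Mx2, 4.36 for Ccl5 and 5.96 for Il12b, against 2.51, 1.34, 4.44 and 6.96 in B6 and 5.01, 4.32, 6.88 and 8.45 in PWD. For Nos2, Hdc and Il12a it was 4.96, 2.58 and 2.52, on this scale between B6 (6.78, 4.39 and 3.69) and PWD (3.75, 0.32 and 1.30). For Ccl2 and Itgb3 it was 0.22 and -0.78, with the sign of B6. Untreated Nos2 averaged 0.56 TPM in B6, 1.34 TPM in C57 and 0.164 TPM in PWD. The order of the strains for Nos2 therefore depends on the 1 TPM added before the log.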

How the data were processed

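Bulk RNA-seq of 24 libraries was used, 16 of them in the contrast. The values are TPM as deposited by the authors, in 1 table of 55401 lines; per the submitters' processing notes STAR, edgeR and the build mm10 were used; how TPM were computed, the annotation and versions are not stated. Lines that shared a symbol were summed (110 lines). Each library sums to 1000000 TPM, so depth and counting error are unknown. The log2(TPM + 1) values entered limma 3.58.1 (R 4.3.3), in a model of 6 group means over 24 libraries (18 residual degrees of freedom), empirical Bayes with trend and robust, two-sided tests and Benjamini-Hochberg adjustment over 13246 genes. The fit was tested on simulated data. No set test was run; lists are described by counts and medians.

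Untreated and LPS-treated cultures with a shared strain and number were assumed to be from 1 mouse, as the design text speaks of individual mice. Their deviations from group means correlated with r of 0.0513 to 0.170 in B6 and 0.0861 to 0.146 in PWD. The assumed partner was the best match for B6 mice 1 and 2 and for all PWD mice. It was not the best match for B6 mice 3 and 4 (r of 0.0513 and 0.106). The within-mouse changes, their overlap and the mouse block rest on this assumption. Within a group the cultures are from separate mice. The main fit does not use the pairing of untreated and LPS-treated cultures, and the alternative with the mouse as a block does. Named genes were the 6 largest differences in each class with 10 TPM or more in a group and no overlap of within-mouse changes. Unnamed models and symbols of pseudogenes were left out there. Also named were 14 fixed genes and up to 4 called genes of each of 30 lists (692 genes, 635 tested), without that exclusion. The text uses a part of the named genes. Itgax, H2-Aa, Lyz2, Zbtb46, Flt3, Xcr1, Xist and Bst2 are named from the markers. Some named genes are not reported here. The genes, lists and tests were chosen with earlier results of these data known. Coordinates are those of GENCODE M21 on mm10 (12977 symbols matched) and promoters those of RefSeq on GRCm38.p6. Alternatives were another pseudocount, filters, scalings, samples, a mouse block, a sex term and leaving out each library.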

Additional observations from a re-analysis of the deposited data

Results flagged for a closer look

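A single library stood apart from the other 3 of its group, with a gap above the 95% critical value of Dixon's test, in 17 of 317 groups of 4 tested for the 92 genes the report names by its rule (5.36%); chance flags about 1 in 20. These were Mx2 at 4.85 TPM (highest of untreated PWD), Hepacam2 at 1.98 TPM (lowest of LPS-treated B6), Hdc at 2.19 TPM (lowest of untreated B6), Hdc at 95.5 TPM (highest of LPS-treated B6), Ccnd1 at 44.3 TPM (highest of untreated B6), Cd180 at 9.44 TPM (lowest of LPS-treated PWD), Ms4a4a at 59.9 TPM (highest of LPS-treated B6), Tnf at 585 TPM (lowest of LPS-treated PWD), Ifit1 at 756 TPM (highest of LPS-treated B6), Ccl2 at 395 TPM (lowest of LPS-treated B6), H2-Q7 at 2.45 TPM (highest of untreated PWD), Nlrp3 at 145 TPM (highest of LPS-treated B6), Abca1 at 62.6 TPM (lowest of LPS-treated PWD), Ccnb1 at 22.7 TPM (lowest of untreated B6), Cycs at 43.9 TPM (highest of LPS-treated PWD), Gpx1 at 499 TPM (lowest of LPS-treated PWD) and Fcgr4 at 4.79 TPM (highest of untreated B6). Without any 1 of these libraries the difference of that gene kept its sign.

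The difference in LPS response between PWD and B6 itself differed between mice 3 and 4 and mice 1 and 2 in 7 genes (limma, adjusted p under 0.05), and 4003 genes (30.2%) had an unadjusted p under 0.05. They were chosen by this test alone: Brix1, Cebpb, Esco1, Gm7336, Klhl2, Rps26 and Sirpb1a. Cebpb, a transcription factor of myeloid cells, stood at 149.5, 206, 399.7 and 397 TPM in untreated PWD libraries 1 to 4 and at 161, 110.5, 108 and 110.5 TPM after LPS, and its difference was 0.49 in mice 1 and 2 and -1.85 in mice 3 and 4 (adjusted p of the change = 0.00944). The LPS response of PWD differed between the pairs of mice in 75 genes and that of B6 in 3. Structural RNA in the untreated PWD libraries splits by the same numbers, and its part in this was not tested.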

How the results depend on the processing

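As reported, the calls were 3111 genes (2117 higher, 994 lower; larger rise 376, smaller fall 1633, opposite signs with PWD higher 98, smaller rise 483, larger fall 405, opposite signs with PWD lower 98). In the same order, median-of-ratios scaling gave 4206 (1980, 2226, 626, 1214, 119, 1571, 454, 179), quantile normalization 4147 (2261, 1886, 743, 1374, 131, 1096, 587, 176), TPM without structural RNA 5642 (4463, 1179, 570, 3660, 214, 578, 468, 127), mice 1 and 2 alone 4191 (3671, 520, 512, 2945, 178, 321, 159, 29), mice 3 and 4 alone 2174 (808, 1366, 226, 541, 40, 540, 640, 184) and a minimum difference of 1 617 (344, 273, 119, 179, 46, 159, 62, 50). The other settings (both filters, no trend, the 4 groups alone, the other pseudocount, the sex term) kept all 9 counts within 1.5 times. Leaving out each library in turn gave ranges of 2683 to 3462, 1686 to 2564, 877 to 1181, 321 to 434, 1259 to 2056, 72 to 116, 422 to 527, 339 to 514 and 73 to 134. The cause of these shifts was not tested. With the mouse as a block, the paired analysis, the counts were 3167 (2136, 1031, 396, 1636, 101, 500, 409, 114), and 2895 of 3111 genes were called in both.

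The list counts given in the report's order as main and with a minimum difference of 1 were 29 and 17 higher interferon-stimulated, 19 and 1 ribosome biogenesis, 16 and 10 cell cycle genes, and 11 and 1 lower cholesterol genes, 11 and 7 cytokines and 8 and 0 MHC class I genes. Cholesterol genes numbered 7 with mice 3 and 4. The MHC class I count was 16 with median-of-ratios scaling, 3 with quantile normalization, 3 without a filter, 1 with mice 1 and 2, 5 with the 4 groups alone and 3 to 9 when a library was left out, with 5 or fewer without LPS-treated B6 library 3 or 4, untreated B6 library 2 or 3, LPS-treated PWD library 1, 2 or 4 or untreated PWD library 3 or 4. Of 132 called genes chosen by the naming rule, 0 turned their sign under these alternatives, and 45 lost the call with a minimum difference of 1, 12 without a filter, 6 with the 4 groups alone, 2 without trend, 2 without structural RNA, 7 with median-of-ratios scaling, 7 with quantile normalization, 10 with a pseudocount of 0.1 TPM, 13 with mice 1 and 2, 22 with mice 3 and 4, 3 with the block (Ndufa1, Cycs and Uqcrfs1) and 14 without some 1 library. Depth is unknown, so the error of genes near 1 TPM rests on the replicates alone.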

Other observations

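The most extreme differences of all belonged to 2 pseudogene models of the ribosomal protein gene Rpl27, which the naming rule leaves out; they were picked after their values were seen. Rpl27-ps3 had a difference of 8.17 (adjusted p = 0.00364) and Gm11518 one of -7.97 (adjusted p = 0.00488). Rpl27-ps3 stood at 0, 42.9, 33.7 and 53.5 TPM in untreated B6, 0, 0, 0 and 0 in LPS-treated B6, 0, 0, 0 and 0 in untreated PWD and 35.6, 0, 47.8 and 45.1 in LPS-treated PWD. Gm11518 stood at 47.8, 0, 0 and 0, 49.97, 33.6, 35.3 and 46.8, 32.5, 34.2, 44.3 and 45.3 and 0, 38.6, 0 and 0 TPM in the same groups. In 24 of 24 libraries exactly 1 of the pair was above 0, and their sum was 25.4 to 57.1 TPM. Rpl27 itself was not called (0.18, adjusted p = 0.175). Both models are among the genes counted with opposite signs.

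Of the 376 genes with a larger rise in PWD, 94 were lower in PWD than in B6 both before and after LPS, 133 were higher in both states and 21 went from lower to higher, as Mx2 did. Of the 483 with a smaller rise, 217 were lower in both states, 36 higher in both and 38 went from higher to lower. In TPM, 72 of the 376 larger rises were a smaller gain in PWD, and 13 of the 483 smaller rises a larger one.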
